A study of Mus musculus with 10 samples.

Results

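The genes described here encode the major histocompatibility complex (MHC) of the mouse, which is called H2, and the machinery that loads peptides onto it. They were taken from the count table by name: every gene whose symbol begins with H2-, apart from 3 symbols that contain -ps, together with B2m, Cd74, Ciita, Tap1, Tap2, Tapbp, Nlrc5, Psmb8, Psmb9, Psmb10 and Erap1. This gave 53 of the 56748 genes in the table, of which 26 had enough counts to be tested, and 14270 genes were tested in all. In the GENCODE M21 annotation, 47 of the 53 lie on chromosome 17, most of them in the H2 region.

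Class I molecules consist of a heavy chain and the light chain beta-2 microglobulin, occur on nearly all nucleated cells and show peptides from inside the cell to cytotoxic T cells. The peptides are cut by the proteasome, in which interferon-inducible subunits can replace constitutive ones, carried into the endoplasmic reticulum by TAP and loaded with the help of tapasin. Class II molecules pair an alpha with a beta chain, need the invariant chain Cd74 on their way through the cell, and are made mainly by dendritic cells, B cells and macrophages under the control of the coactivator Ciita, whereas Nlrc5 is the corresponding coactivator of class I genes. Adipocytes express class I, and class II expression by adipocytes has been described in obesity.

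RNA was sequenced from 5 control and 5 KO cultures of primary adipocytes, differentiated for 6 to 8 days from inguinal stromal vascular cells of male mice aged 6 to 8 weeks. Control mice carried the floxed Fam20c gene without Cre, and KO mice carried Fam20c-flox together with Adipoq-Cre, a transgene driven by the adiponectin promoter, so that recombination was directed to adipocytes and other cells in the culture kept the gene. The floxed line had been backcrossed for at least 5 generations to C57BL/6J. Fam20c encodes a kinase of the secretory pathway, and the comparison asked which transcripts depend on it in adipocytes. The sample titles give only a group and a number and name neither animals nor cultures, so the p-values measure the spread between these libraries.

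Libraries held between 18949106 and 26237825 counts. Fam20c itself was lower in each KO library than in each control library (7.30 against 10.2 CPM, a count scaled for library size, on average, adjusted p = 0.0137 by edgeR's quasi-likelihood test). Adipocyte markers were high in all libraries, with 8 genes summing to 35807 to 37019 CPM in control and 37070 to 39339 CPM in KO libraries. Each KO sum was thus above each control sum. Of these genes 7 had positive log2 fold changes, 3 at an unadjusted edgeR p under 0.05 (background 4.43%) and 0 past the adjusted limit. Control 4 and KO 1 separated from the other libraries along the leading principal component (23.5% of the variance). Endothelial markers moved with genotype: all 15 had negative log2 fold changes, 12 fell past the adjusted limit, and their summed level was 186 to 229 CPM in control and 81.9 to 120 CPM in KO libraries. Among 7 progenitor and fibroblast markers 3 fell, and the sum was 2748 to 3212 CPM in control and 2361 to 2781 CPM in KO libraries. The 14 myeloid markers summed to 1512 to 2331 CPM in control and 1337 to 2211 CPM in KO libraries, with a lowest adjusted p of 0.673. In bulk RNA, fewer cells of a type and less RNA per cell cannot be told apart.

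Class I transcripts were abundant in both groups, and with edgeR H2-Q5 was the 1 tested gene past the adjusted p limit of 0.05, while DESeq2 also called H2-Q6. By edgeR 1 gene fell, which is 1 of 26 against 1.86% of all genes tested, and 0 rose, against a background of 0.308%. At an unadjusted p under 0.05, 6 were lower (background 7.46%) and 0 were higher (background 4.43%), and DESeq2 called 2 lower and 0 higher, limma voom 1 lower and 0 higher. The 6 were B2m, H2-D1, H2-Q4, H2-Q5, H2-Q6 and H2-T10, all of them class I chains. The log2 fold change was below 0 for 19 of the 26 genes (21 with upper quartile scaling), where 50.3% of all tested genes were, and its median was -0.13 over the 26 and -0.00085 over all genes. Among the 13 tested class I chains 12 were below 0 with a median of -0.19, and among the other 13 genes 7 were below 0 with a median of -0.011. The counts rest in part on control library 5: without it the median over the 26 genes was -0.037 and 2 genes had an unadjusted p under 0.05. Without KO library 4 the median was -0.084, without KO library 5 it was -0.19, and without control library 1 the number at an unadjusted p under 0.05 was 10.

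Summed over all class I heavy chains, the level was 1860, 2036, 2209, 2134 and 2502 CPM across control 1 to 5 and 2047, 1865, 1921, 1742 and 2098 CPM across KO 1 to 5. The KO mean was 0.901 times the control mean, and the groups overlapped, with control 1 and 2 inside the KO range. Endothelial markers, given above, were also lower in KO cultures. The 7 progenitor and fibroblast markers all had negative log2 fold changes, but 3 passed the adjusted limit. The adipocyte sum was higher in KO libraries. The part of these shifts in the class I values was not tested.

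**Figure D1:**
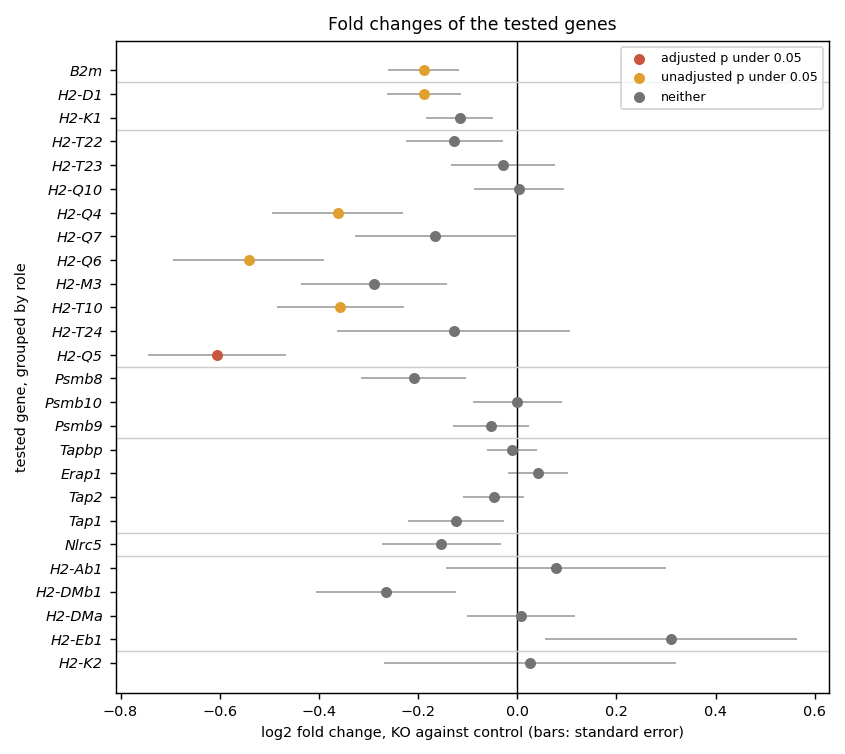
Log2 fold change of each of the 26 tested genes in KO against control cultures (x axis), grouped by role from top to bottom: light chain, classical class I, other class I, immunoproteasome, peptide transport and loading, Nlrc5, class II and H2-K2. Points are edgeR estimates and bars are standard errors; H2-Q5 is the only gene past the adjusted limit by edgeR, at -0.61, and the 5 further genes with an unadjusted p under 0.05 are all class I chains on the left of 0.

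B2m (chr2:122147686-122153083, plus strand) encodes the light chain that all class I heavy chains need to reach the surface. Its level was 964, 1016, 1134, 1082 and 1277 CPM across control 1 to 5 and 994, 911, 906, 948 and 1043 CPM across KO 1 to 5. The 3 lowest libraries were KO and the 3 highest were control, while control 1 and 2 lay among the KO values. Control cultures averaged 1095 ± 121 CPM and KO cultures 960 ± 58.0 CPM (SD, n = 5 each). This gave a log2 fold change of -0.19 ± 0.071 (SE) and an adjusted p of 0.280 by edgeR, with p = 0.0476 in the 2-sided exact permutation test.

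The classical heavy chains H2-K1 (chr17:33996017-34000347, minus strand) and H2-D1 (chr17:35262730-35267499, plus strand) present peptides to CD8+ T cells. H2-D1 stood at 845, 939, 1025, 962 and 1140 CPM in the 5 control libraries and at 929, 813, 859, 791 and 920 CPM in the 5 KO libraries. H2-K1 stood at 697, 747, 819, 797 and 897 CPM in control and at 760, 718, 734, 654 and 785 CPM in KO libraries. For both genes the groups overlapped, control 5 was the highest of all libraries and KO 4 the lowest. The log2 fold change of H2-D1 was -0.19 ± 0.075 (SE, edgeR adjusted p = 0.318, exact permutation p = 0.0556). That of H2-K1 was -0.12 ± 0.068 (SE, edgeR adjusted p = 0.564, exact permutation p = 0.190), and without control 5 it was -0.067.

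Per kilobase of exon, B2m was the highest gene of the set at 1273 ± 140 CPM per kb (SD, n = 5, control). H2-D1 followed with 381 ± 42.4 and H2-K1 with 269 ± 25.7 CPM per kb (SD, n = 5), and the control ranges of these 3 genes did not overlap. Tapbp came next at 63.3 ± 3.44 CPM per kb, then H2-T23 at 35.4 ± 5.70 and H2-T22 at 33.3 ± 5.38 CPM per kb, whose ranges overlapped. H2-Q4 reached 21.5 ± 4.21 CPM per kb, and each of the other tested genes was at or below 14.4 CPM per kb on average in control cultures.

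**Figure D2:**
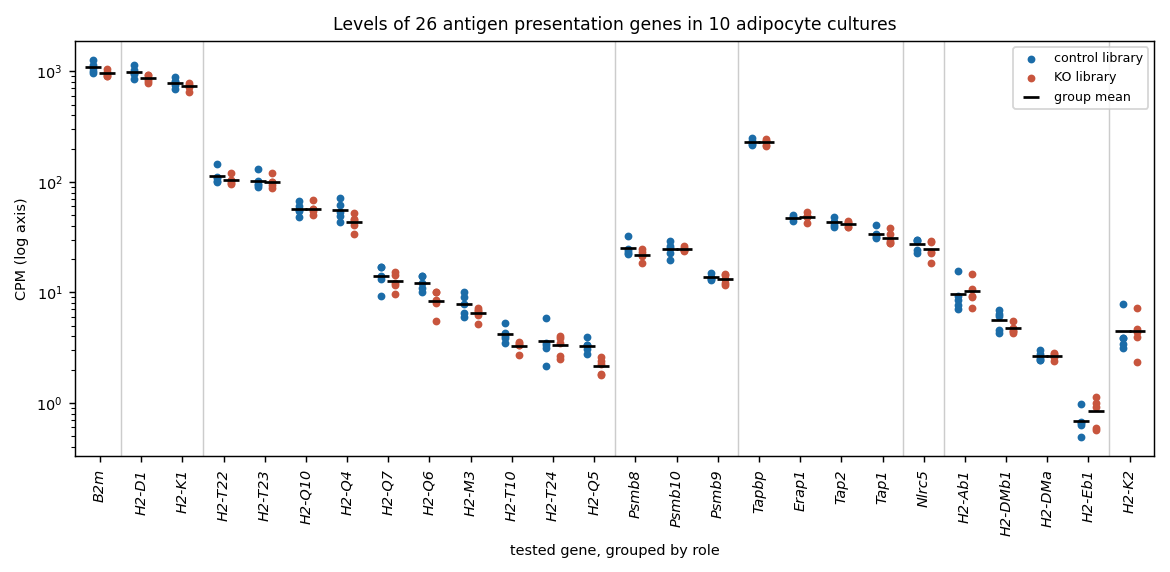
CPM (log axis) of the 26 tested genes in each control library (blue) and KO library (red), grouped by role as in the order light chain, classical class I, other class I, immunoproteasome, transport and loading, Nlrc5, class II and H2-K2; black bars are group means. The library values of the 2 groups overlap for every gene but H2-Q5, whose 5 KO points lie below the 5 control points.

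The further class I heavy chains, encoded in the Q, T and M clusters, numbered 26, of which 10 could be tested. H2-Q5 is annotated in GENCODE M21 as a polymorphic pseudogene, that is, a gene that is intact in some strains (chr17:35394126-35397800, plus strand). Its level was 3.36, 3.07, 2.77, 3.92 and 3.34 CPM across control 1 to 5 and 2.58, 1.84, 2.23, 1.79 and 2.39 CPM across KO 1 to 5. All 5 KO libraries were below all 5 control libraries, although the gap between control 3 and KO 1 was small. It was the only gene of the 26 without overlap. Over all tested genes 2.66% had every KO library below every control library and 1.31% the reverse, which held for 0 of the 26. H2-Q5 fell by 0.61 ± 0.14 on the log2 scale (SE, adjusted p = 0.0416 by edgeR's quasi-likelihood test, exact permutation p = 0.00794, which is the smallest that 5 against 5 libraries allow). The call rested on 596 counts over all libraries and was lost in 8 of 10 fits that left out a library. Its adjusted p by edgeR was 0.0973, 0.0673, 0.0687 and 0.105 without control 1, 2, 4 and 5, and 0.129, 0.0888, 0.111 and 0.0730 without KO 2, 3, 4 and 5. Leaving out control 3 or KO 1 kept it past the limit, and the log2 fold change stayed between -0.67 and -0.53 over the 10 fits.

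H2-Q6 (chr17:35424850-35430055, plus strand) lies next in the cluster among the tested genes and had the next lowest log2 fold change. It was at 10.0, 12.2, 10.9, 14.1 and 14.1 CPM across control 1 to 5 and at 10.1, 8.47, 7.99, 5.50 and 10.1 CPM across KO 1 to 5. Control 1, at the bottom of its group, lay just under the highest KO libraries, KO 1 and KO 5. The log2 fold change was -0.54 ± 0.15 (SE, edgeR adjusted p = 0.111, exact permutation p = 0.0238), and DESeq2 placed it past the limit with an adjusted p of 0.0297, as did edgeR with no filter on low counts (adjusted p = 0.0411).

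H2-Q4 (chr17:35379617-35385290, plus strand) lies before H2-Q5 in the cluster. It measured 43.6, 49.3, 53.0, 62.0 and 71.4 CPM across control 1 to 5 and 46.3, 44.7, 40.4, 34.1 and 52.1 CPM across KO 1 to 5. The groups overlapped between control 1 and KO 5, with a log2 fold change of -0.36 ± 0.13 (SE, edgeR adjusted p = 0.258, exact permutation p = 0.0714). The exons of H2-Q4 overlap Gm11131 on the opposite strand over 19.1% of their length. Fragments of the overlap cannot be assigned to either gene here. Neither the strand setting of the counting nor whether the libraries kept the strand is given. Among the tested genes of the set, exon overlap with other genes was larger for H2-T10 (27.1%), H2-T22 (29.4%) and Tapbp (29.0%).

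H2-T10 (chr17:36115876-36121465, minus strand), a polymorphic pseudogene in GENCODE M21, belongs to the T cluster. It was at 3.51, 3.90, 4.28, 4.01 and 5.33 CPM in control libraries and at 3.37, 3.34, 3.49, 2.70 and 3.56 CPM across KO 1 to 5. Only KO 5, by a small margin, exceeded the lowest control library. Its log2 fold change was -0.36 ± 0.13 (SE, edgeR adjusted p = 0.253, exact permutation p = 0.0159). H2-T23, which encodes Qa-1, the chain that presents leader peptides of other class I molecules to NK cell receptors, had 90.04, 94.3, 101, 95.7 and 131 CPM in control and 101, 94.1, 99.4, 87.5 and 121 CPM in KO libraries. Library 5 was the highest in both groups, which overlapped almost throughout (log2 fold change -0.028 ± 0.10, SE, edgeR adjusted p = 0.965).

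The other 5 tested chains of these clusters were H2-M3, which presents formylated peptides, H2-Q7, H2-Q10, H2-T22 and H2-T24. Their log2 fold changes ran from -0.29 for H2-M3 (edgeR adjusted p = 0.481) to 0.0035 for H2-Q10 (edgeR adjusted p = 0.997). Without control 5 those of H2-M3, H2-Q7 and H2-T22 were -0.18, -0.085 and -0.021, against -0.29, -0.16 and -0.13 with all libraries, and that of H2-T24 turned from -0.13 to 0.13. H2-Q10, known as a secreted class I molecule of liver, reached 48.4 to 66.6 CPM in control and 50.1 to 68.4 CPM in KO libraries. Of the 10 tested chains of the 3 clusters, 9 had negative log2 fold changes, and that of H2-Q10 was -0.0011 with upper quartile scaling.

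These chains resemble each other in sequence, and fragments that fit several genes may have been split or dropped. Of all stretches of 50 bases in its GENCODE M21 transcripts, H2-Q5 shared 36.4% with another gene, 25.5% with H2-Q7 alone. The share was 35.0% for H2-Q6, 36.4% for H2-Q4, 26.5% for H2-Q7 and 19.1% for H2-Q10. It was 50.4% for H2-T10 and 53.5% for H2-T22, which shared most with each other (31.7% and 31.2%). These shares count any other gene, not class I chains alone. The largest partner of H2-Q4 was Gm11131 (15.3%), which overlaps it on the opposite strand. H2-T10 and H2-T22 also shared stretches with genes that overlap them on the opposite strand. For H2-D1 the share was 12.8%, for H2-K1 9.63% and for B2m 0. The single values of H2-Q5, H2-Q6 and H2-T10 are therefore less certain than those of B2m, H2-D1 and H2-K1. A sum over H2-Q4, H2-Q5, H2-Q6 and H2-Q7 does not depend on how fragments were divided among these 4. It still depends on fragments that were dropped or divided with genes outside the sum. H2-Q10, which is outside it, shared 14.0% of the stretches of H2-Q7. The summed level was 66.2, 77.9, 80.7, 96.9 and 106 CPM across control 1 to 5 and 74.3, 66.6, 62.9, 50.9 and 79.1 CPM across KO 1 to 5. Control 1 lay among the KO values and control 2 just below KO 5, while control 3, 4 and 5 lay above all KO libraries.

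The Q cluster follows H2-D1 on chromosome 17. The tested genes along it, in order, had log2 fold changes of -0.19 for H2-D1, -0.34 for Gm11131, -0.36 for H2-Q4, -0.61 for H2-Q5, -0.54 for H2-Q6, -0.16 for H2-Q7 and 0.0035 for H2-Q10, over 207 kb. The value of Gm11131 (SE 0.22, unadjusted p = 0.148 by edgeR) may hold fragments of H2-Q4, which it overlaps on the opposite strand. The estimates were lowest in the middle of the cluster. Between H2-K1 and H2-M3, 16 of 20 tested genes of the set were below 0, with a median of -0.13. Of 82 other tested genes of this region 57 were below 0, with a median of -0.043. Over all tested genes 50.3% were below 0, with a median of -0.00085. Past the adjusted limit, all lower, were H2-Q5, 1 of the 20, and 2 of the 82 other genes, against 1.86% of all tested genes. These 2 were Notch4 (log2 fold change -0.65, edgeR adjusted p = 0.0288) and Tnxb (log2 fold change -0.38, edgeR adjusted p = 0.0238). The call for Notch4 was lost in 5 of 10 fits that left out a library (control 5 and KO 2, 3, 4 and 5, highest edgeR adjusted p = 0.0995), and that for Tnxb in 4 (control 1 and 5, KO 4 and 5, highest edgeR adjusted p = 0.0651).

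**Figure D3:**
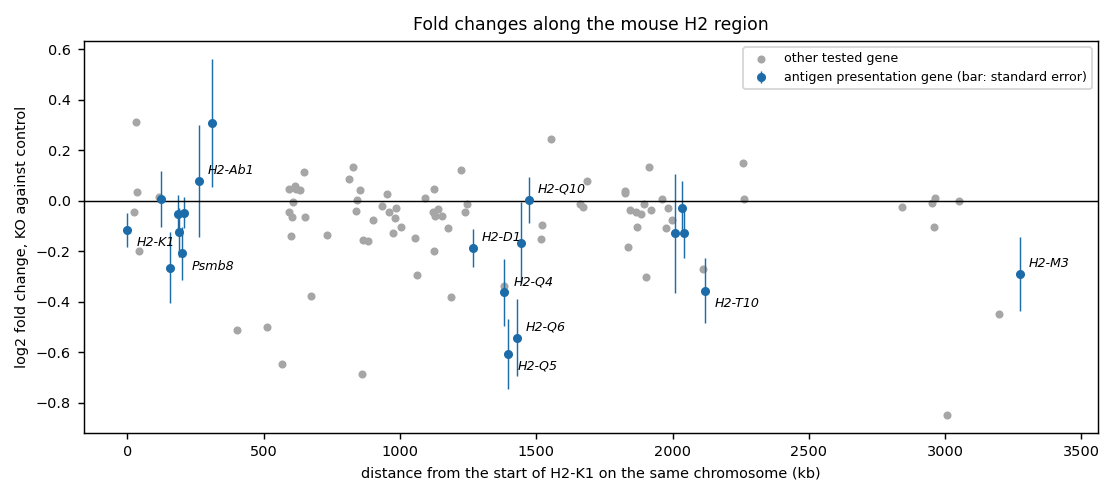
Log2 fold change in KO against control cultures (y axis) of tested genes on chromosome 17 by distance in kb from the start of H2-K1 (x axis). Blue points with standard errors are the 20 genes of the set in this region and grey points the 82 other tested genes; H2-Q5 and H2-Q6 are the lowest blue points, at -0.61 and -0.54, and H2-Q10 lies at 0.

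Class I promoters share a short upstream control region, which is shown here for heavy chains whose estimates differed. Stretches of 120 bases were read from RefSeq promoter windows (GRCm38.p6), which reach from 250 bases before to 50 bases after the start of transcription. Capitals mark matches, on either strand, to 4 motifs: GGGGATTNCCC, a form of the NF-kB site of enhancer A, TTTCACTTCT, a form of the interferon-stimulated response element, TGACG, the core of the site bound by CREB and ATF proteins, and ATTGG, the inverted CCAAT box bound by NF-Y. The motifs were chosen after the sequences were seen, and the letters of the first 2 were read from the windows of H2-D1 and H2-Q4, so these hold them by choice. The matches shown do not overlap each other. The H2-K1 stretch is chr17:34000358-34000477 (minus strand), H2-D1 is chr17:35262904-35263023, H2-Q4 is chr17:35379424-35379543, H2-Q6 is chr17:35424658-35424777, H2-Q7 is chr17:35439002-35439121, H2-Q10 is chr17:35469894-35470013 and B2m is chr2:122147557-122147676 (all plus strand).
H2-K1: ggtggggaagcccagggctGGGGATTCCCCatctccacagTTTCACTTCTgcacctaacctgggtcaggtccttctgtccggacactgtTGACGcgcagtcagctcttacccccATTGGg
H2-D1: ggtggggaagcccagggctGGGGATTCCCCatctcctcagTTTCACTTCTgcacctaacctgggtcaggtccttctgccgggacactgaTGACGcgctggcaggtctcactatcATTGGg
H2-Q4: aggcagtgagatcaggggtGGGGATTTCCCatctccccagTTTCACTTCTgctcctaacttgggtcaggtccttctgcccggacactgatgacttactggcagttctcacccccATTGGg
H2-Q6: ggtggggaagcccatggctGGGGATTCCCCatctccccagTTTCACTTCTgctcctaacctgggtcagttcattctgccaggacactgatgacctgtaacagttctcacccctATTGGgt
H2-Q7: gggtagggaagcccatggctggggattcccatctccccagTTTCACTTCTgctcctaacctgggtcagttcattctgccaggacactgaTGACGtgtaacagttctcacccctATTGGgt
H2-Q10: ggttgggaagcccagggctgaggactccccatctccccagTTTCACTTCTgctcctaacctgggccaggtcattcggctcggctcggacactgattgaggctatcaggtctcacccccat
B2m: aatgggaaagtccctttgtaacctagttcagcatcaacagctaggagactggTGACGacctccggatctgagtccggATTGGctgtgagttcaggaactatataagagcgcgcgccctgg

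H2-K1 and H2-D1 held all 4 motifs in the same order, and the window of H2-Q4 held them too, with its TGACG outside the stretch shown. Of 32851 promoter windows of the same length, 4 held all of them (0.0122%). These were 2 windows of H2-K1 and the windows of H2-D1 and H2-Q4, from which the first 2 motifs were read. This share was thus set in part by the choice of motifs. TTTCACTTCT alone occurred in 0.155% of windows, GGGGATTNCCC in 0.0761%, TGACG in 20.8% and ATTGG in 37.4%. H2-Q6 lacked TGACG in its window, H2-Q7 lacked GGGGATTNCCC, and H2-Q10 held TTTCACTTCT alone. Of the 19 tested genes with a window, 7 held TTTCACTTCT, 4 held GGGGATTNCCC, 9 held TGACG and 14 held ATTGG. H2-Q5 and H2-T10 had no window in the table. The log2 fold changes of the chains that held TTTCACTTCT ranged from -0.54 for H2-Q6 to 0.0035 for H2-Q10.

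The immunoproteasome subunits Psmb8, Psmb9 and Psmb10 replace constitutive catalytic subunits and change the peptides that are cut. Psmb8 was at 22.2, 23.9, 24.8, 22.9 and 32.4 CPM in control libraries and at 23.4, 21.3, 22.0, 18.4 and 24.5 CPM across KO 1 to 5. Psmb9 was at 13.7, 13.6, 12.9, 13.1 and 15.0 CPM in control and at 13.3, 14.5, 12.05, 11.7 and 14.3 CPM in KO libraries. Psmb10 was at 22.6, 26.2, 25.4, 19.4 and 29.0 CPM in control and at 23.7, 24.0, 24.2, 26.2 and 25.0 CPM in KO libraries. For all 3 the groups overlapped widely and control 5 was the highest library. The log2 fold changes were -0.21 ± 0.11 for Psmb8, -0.053 ± 0.076 for Psmb9 and 0.00014 ± 0.090 for Psmb10 (SE), with edgeR adjusted p of 0.482, 0.881 and 1.00. Without control 5 Psmb8 was at -0.10, and Psmb9 ranged from -0.086 without KO 2 to -0.013 without KO 4. The estimate of Psmb10 was -0.0059 with upper quartile scaling. Of the constitutive subunits they replace, Psmb5, Psmb6 and Psmb7, the lowest adjusted p was 0.780.

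Peptide transport and loading showed values close to 0 on the log2 fold change scale. Tap1, which with Tap2 forms the peptide transporter, had 33.4, 33.4, 31.8, 30.8 and 40.5 CPM in control libraries and 27.8, 33.6, 28.9, 28.0 and 37.9 CPM across KO 1 to 5. Tap2 had 38.8, 43.2, 41.1, 43.8 and 48.2 CPM in control and 38.8, 43.4, 42.4, 39.3 and 44.2 CPM in KO libraries. For both genes library 5 was the highest of its group and the groups overlapped. Tapbp, which encodes tapasin and bridges TAP to the empty class I molecule, had 216, 236, 230, 220 and 247 CPM in control and 213, 233, 234, 215 and 245 CPM in KO libraries. Erap1, the aminopeptidase that trims peptides in the endoplasmic reticulum, had 47.7, 47.1, 44.1, 46.8 and 50.2 CPM in control and 42.3, 53.9, 48.1, 49.1 and 49.5 CPM in KO libraries. For Tapbp and Erap1 the groups overlapped almost completely, and Erap1 was both lowest and highest in KO libraries. The log2 fold changes were -0.12 ± 0.097 for Tap1, -0.047 ± 0.062 for Tap2, -0.011 ± 0.051 for Tapbp and 0.042 ± 0.060 for Erap1 (SE), and the lowest edgeR adjusted p was 0.708, for Tap1. With a library left out, Tap1 ranged from -0.20 (KO 5) to -0.052 (control 5), Tap2 from -0.082 (control 1) to -0.0026 (control 5) and Erap1 from 0.0082 (KO 2) to 0.090 (KO 1). Tap1 and Psmb9 are divergent neighbours whose promoter windows overlap by 275 bases. Their exons also overlap on opposite strands, over 5.79% of the exon length of Psmb9 and 3.87% of that of Tap1.

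Nlrc5 (chr8:94434356-94527272, plus strand), the class I coactivator, stood at 29.7, 29.2, 24.3, 22.9 and 30.1 CPM across control 1 to 5 and at 18.5, 28.9, 23.4, 22.95 and 28.8 CPM across KO 1 to 5. KO 1 was the lowest library, and the other 9 overlapped (log2 fold change -0.15 ± 0.12, SE, edgeR adjusted p = 0.709, and -0.066 without KO 1). Across the 10 libraries, log2 CPM of Nlrc5 was correlated with that of Tap1 (Pearson r = 0.829, permutation p = 0.00266, adjusted over 6 pairs 0.00736, Spearman rho = 0.855, permutation p = 0.00312, adjusted 0.00626). The correlation remained after subtraction of group means (r = 0.802, adjusted permutation p = 0.0109) and without KO 1 and control 4, the libraries farthest from the median (r = 0.830, adjusted permutation p = 0.0113). With B2m and H2-K1 the correlation of Nlrc5 was not past the limit (r = 0.197 and 0.142, rho = 0.200 and 0.0545, adjusted permutation p = 0.695 for both r and 0.700 and 0.891 for rho).

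Psmb9 and Tap1 were also correlated (r = 0.832, permutation p = 0.00368, adjusted 0.00736, rho = 0.855, adjusted 0.00626), with r = 0.787 without KO 3 and KO 4. The exons of Psmb9 and Tap1 overlap in part, as given above, and what this adds to the correlation was not tested. H2-K1 and H2-D1 had r = 0.959 (permutation p = 4e-05, adjusted 0.00024) and rho = 0.939 (adjusted 0.00144), and r = 0.901 without control 5 and KO 4. Within groups, r for this pair was 0.986 in the 5 control and 0.909 in the 5 KO libraries, given without a test.

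**Figure D4:**
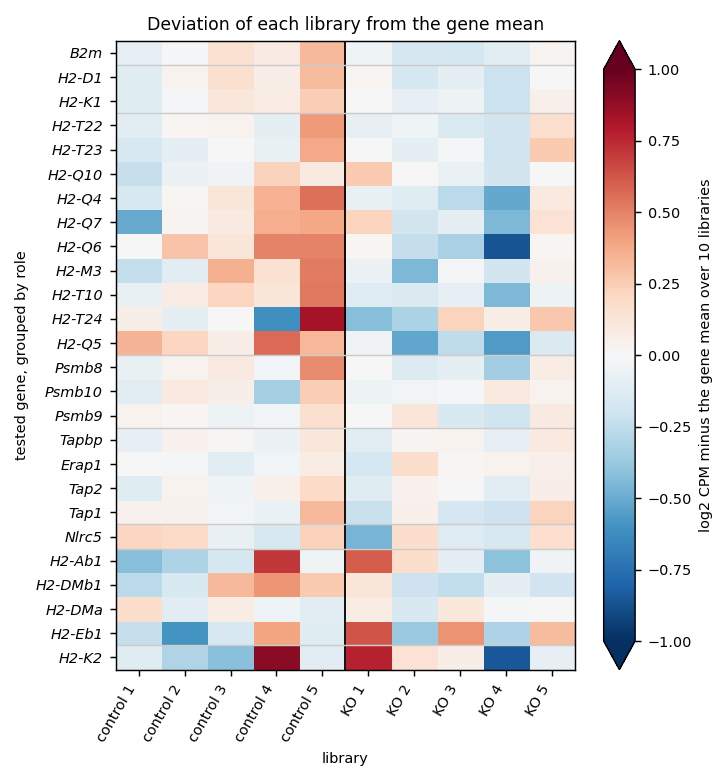
Colour gives log2 CPM of each tested gene (vertical axis) in each library (horizontal axis) minus the mean of that gene over the 10 libraries, with control libraries to the left of the black line. Control 5 is red for most class I chains, control 4 and KO 1 are red for H2-Ab1 and H2-K2, and KO 4 is blue for most class I chains.

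The libraries differed in this gene set apart from genotype. Control 5 was the highest control library for 19 of the 26 genes and KO 5 the highest KO library for 13 of 26, while each was the highest of its group for 14.7% and 15.4% of all tested genes. Among the 13 class I chains these were 11 and 9. Control 1 was the lowest control library for 16 genes and KO 4 the lowest KO library for 14. The same libraries led in the summed level of 25 interferon-stimulated genes, with 1041, 1082, 1067, 870 and 1536 CPM across control 1 to 5 and 833, 1139, 1004, 1041 and 1350 CPM across KO 1 to 5. Library 5 was the highest of both groups there, and KO 1 and control 4 the lowest. With control 5 and KO 5 both left out, no gene of the 26 passed the adjusted limit by edgeR, 5 had an unadjusted p under 0.05, all lower, and the median log2 fold change was -0.088.

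Class II expression was low and uneven. The invariant chain Cd74 had 1 to 12 counts in a library, Ciita 0 to 3 and the alpha chain H2-Aa 0 to 2, and none of these 3 could be tested. H2-Ab1, the beta chain that pairs with H2-Aa (chr17:34257689-34269419, plus strand), had 136, 206, 180, 323 and 220 counts in control libraries and 294, 246, 206, 157 and 184 counts across KO 1 to 5. In CPM this was 7.13, 7.72, 8.47, 15.6 and 9.30 in control and 14.6, 10.8, 8.99, 7.19 and 9.36 in KO libraries. Control 4 and KO 1, the libraries that separated along the leading component, were the highest, and the log2 fold change was 0.079 ± 0.22 (SE, edgeR adjusted p = 0.950). H2-Ab1 shared 0% of its 50-base stretches with another gene and overlaps no other gene in GENCODE M21.

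H2-Eb1, the other class II beta chain that could be tested, was near the limit of detection with 12 to 20 counts in control and 13 to 23 counts in KO libraries. Its level was 0.629, 0.487, 0.658, 0.967 and 0.676 CPM in control and 1.14, 0.571, 1.00, 0.596 and 0.916 CPM across KO 1 to 5, highest again in control 4 and KO 1 of their groups (log2 fold change 0.31 ± 0.25, SE, edgeR adjusted p = 0.728), with a range from 0.19 without KO 1 to 0.47 without control 4. The peptide exchange factor H2-DM is formed by H2-DMa and a beta chain. H2-DMa had 2.99, 2.44, 2.77, 2.56 and 2.45 CPM in control and 2.78, 2.37, 2.84, 2.61 and 2.65 CPM in KO libraries. H2-DMb1 had 4.25, 4.61, 6.40, 6.96 and 6.13 CPM in control and 5.56, 4.44, 4.32, 4.81 and 4.48 CPM in KO libraries. For H2-DMa the groups coincided, and for H2-DMb1 control 3, 4 and 5 lay above all KO libraries whereas control 1 lay below them. The log2 fold changes were 0.0073 ± 0.11 and -0.26 ± 0.14 (SE, edgeR adjusted p = 0.993 and 0.508).

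Of the markers of cells that make class II, dendritic cell markers Xcr1, Clec9a, Ccr7, Cd209a and Siglech were at 0 counts in all libraries, as was the B cell marker Ms4a1. Of 9 dendritic cell markers 5 were at 0 and 1 was tested, and of 5 B cell markers none was tested. Summed over the lists, dendritic cell markers reached 11.4 to 12.9 CPM in control and 9.67 to 11.7 CPM in KO libraries, nearly all of it Zbtb46, and B cell markers at most 0.367 CPM. The myeloid markers, which include those of macrophages, were present throughout. In control 4 and KO 1, where H2-Ab1 was highest, their sum was 1584 and 2186 CPM, the first near the bottom of its group and the second near the top. Which cells the H2-Ab1 fragments came from was not tested.

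H2-K2, a transcribed pseudogene in GENCODE M21 that lies near H2-K1, was the only one of 4 other H2 names to be tested. It had 3.15 to 7.88 CPM in control and 2.34 to 7.19 CPM in KO libraries, again with control 4 and KO 1 highest in their groups (log2 fold change 0.026 ± 0.29, SE, edgeR adjusted p = 0.989). The remaining 27 genes were not tested. Of these, 16 had counts, at most 12 in a library and at most 45 in total, reached by Cd74. They included H2-M9 with 44 counts, H2-M2 with 35 and H2-Ob with 5. The other 11, among them H2-Ea, H2-Eb2, H2-Oa and H2-Q3, were at 0 in all 10 libraries, which allows up to 0.0137 CPM over the 10 libraries together (3 counts, counting error only). C57BL/6 mice are known to lack a functional H2-Ea gene.

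Beyond the set, 76 other genes of the pathway were examined in 10 groups, of which 74 were tested. Of these 1 fell (1 of 74, against 1.86% of all tested genes) and 0 rose (against 0.308%), and at an unadjusted p under 0.05 there were 4 of 74 lower (against 7.46%) and 0 higher (against 4.43%), so that no count exceeded the background, with a median log2 fold change of -0.021. The gene that fell was Cd80, a costimulatory ligand of CD28 and CTLA-4 on antigen-presenting cells. Cd80 was at 12.5, 11.4, 12.7, 11.1 and 11.6 CPM across control 1 to 5 and at 6.201, 8.52, 8.90, 9.99 and 7.48 CPM across KO 1 to 5. No KO value reached the lowest control value, and the log2 fold change was -0.53 ± 0.11 (SE, edgeR adjusted p = 0.0230). The call was lost without control 1, 3 or 5 or KO 2 or 5, with an edgeR adjusted p of up to 0.0732 and a log2 fold change between -0.61 and -0.44 over the 10 fits.

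The other 3, none past the adjusted limit, were Procr, a class I-like receptor of endothelium that binds protein C (log2 fold change -0.38, edgeR adjusted p = 0.181), Rfx5, a subunit of the complex that recruits Ciita and Nlrc5 to MHC promoters (log2 fold change -0.19, edgeR adjusted p = 0.258), and Ifngr2, a chain of the interferon gamma receptor (log2 fold change -0.10, edgeR adjusted p = 0.369). Among the 25 interferon-stimulated genes 19 were below 0, with a median of -0.071 and a lowest adjusted p of 0.653, for Bst2. Of the chaperones of class I loading, Canx, Calr and Pdia3 had log2 fold changes of -0.063, -0.11 and -0.13 and Tapbpl 0.089, with a lowest adjusted p of 0.674 by edgeR.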

How the data were processed

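RNA-seq libraries of 5 control and 5 KO adipocyte cultures were analysed, as labelled, although the study's text gives n = 4 per group for its heatmap of this comparison. The authors prepared libraries with SMARTer v4 and Nextera XT kits, sequenced paired ends of 50 bases, mapped them with STAR to GRCm38.p6 and used featureCounts with an Ensembl annotation. The deposited values are raw counts per gene, and the submitters' processing notes name mm10. The strand setting and the treatment of fragments that map to several genes are not given in the sources used here. Of 56748 gene identifiers 52073 were found in GENCODE M21, all 53 of the set among them, but only 35 of the 52073 carried the same version number, so positions and lengths may differ from those used in counting.

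Counts were filtered (filterByExpr, minimum count 10), scaled by TMM and tested with edgeR 4.0.16 (quasi-likelihood test, no covariate) in R 4.3.3, with Benjamini-Hochberg adjustment over all 14270 genes and a limit of 0.05. CPM are counts divided by the TMM-scaled library size. Exact permutation tests of mean log2 CPM (prior count 2) used all 252 assignments and were 2-sided. Correlations used 100000 permutations and 2-sided p, with 4 further pairs dropped because Ciita or Cd74 was not tested, and 1 of the 6 pairs adjusted for is not reported here. DESeq2 1.42.0, limma 3.58.1, other scalings and filters, a replicate block and each library left out in turn were alternatives. The script was checked on simulated counts.

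Values in every library are given for a chosen list of main genes and for any other tested gene with an unadjusted p under 0.05 or groups that do not overlap, and the rest by range. The genes, lists and tests were chosen with earlier results of these data known. Total counts of 18949106 to 26237825 leave genes under about 1 CPM with few counts.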

Additional observations from a re-analysis of the deposited data

Results flagged for a closer look

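In 52 groups of 5 libraries (26 genes in control and KO), a library stood apart from the other 4 in 7, where the gap to its neighbour exceeded 0.71 of the range. Chance alone gives about 1 in 20 groups, or 2.6 of 52, and the groups are not independent because the genes vary together. Control 5 was the high library for Psmb8 (gap 0.746 of the range, 32.4 CPM against 22.2 to 24.8), H2-T22 (0.774, 145 CPM against 101 to 111), H2-T23 (0.738, 131.0 CPM against 90.04 to 101) and Tap1 (0.736, 40.5 CPM against 30.8 to 33.4). Control 4 was the high library for H2-Ab1 (0.745, 15.6 CPM against 7.13 to 9.30) and H2-K2 (0.844, 7.88 CPM against 3.15 to 3.89). KO 4 was the low library for H2-T10 (0.738, 2.70 CPM against 3.34 to 3.56).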

How the results depend on the processing

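The number of genes of the set lower past the adjusted limit was 1 with limma voom, both other scalings and the stricter filter, 2 with DESeq2, 2 with no filter on low counts, and 0 to 1 with a library left out; 0 were higher throughout. Fits without the pair control 4 and KO 1 (1 lower) or control 5 and KO 5 (0 lower) were chosen after seeing the data. Over all tested genes, 265 were lower and 44 higher, against 125 higher with DESeq2 and 111 with limma voom, 164 to 323 lower and 19 to 119 higher with a library left out, 145 higher without control 4 and KO 1, and 111 lower and 10 higher without control 5 and KO 5. Correlations between same-numbered libraries, as deviations from group means, ran from -0.25 to 0.26 over all genes and from -0.78 to 0.67 over the 26. The 0.67 was that of replicate 5, and control 3 alone matched best with its own number. These few values cannot show whether libraries of the same number were prepared together. With a replicate block 0 genes of the set were called, H2-Q5 had an adjusted p of 0.124 by edgeR, and 21 genes of the table were higher. In that fit 10 genes of the set were lower and 0 higher at an unadjusted p under 0.05 by edgeR. Under the block Cd80, Notch4 and Tnxb also missed the limit (edgeR adjusted p = 0.0659, 0.0962 and 0.0509), as they did without control 5 and KO 5 (0.152, 0.172 and 0.149), where Fam20c had an adjusted p of 0.0959. Genes near 0 changed sign, none past the limit: H2-DMa (-0.00727 with voom, -0.0159 without control 4 and KO 1, -0.0184 without control 5 and KO 5), H2-Q10 (-0.00112 with upper quartile scaling, -0.00596 without control 4 and KO 1), Psmb10 (-0.0255 with voom, -0.00591 with upper quartile scaling, -0.00264 with the stricter filter, -0.0585 without control 4 and KO 1), and without control 5 and KO 5 H2-T23 (0.00292) and H2-T24 (0.0544). With a library left out, the log2 fold change of 19 of the 26 genes moved by over 1.5 times or changed sign in some fit, 16 of them without control 5, but not those of B2m, H2-D1, H2-Q4, H2-Q5, H2-Q6, H2-T10 and H2-DMb1. It ranged from -0.0799 to 0.319 for H2-Ab1, -0.0219 to 0.0529 for H2-DMa, -0.196 to 0.333 for H2-K2, -0.0647 to 0.0664 for H2-Q10, -0.102 to 0.0777 for H2-T23, -0.258 to 0.131 for H2-T24, -0.0704 to 0.0683 for Psmb10 and -0.0373 to 0.0166 for Tapbp. After subtraction of group means r was -0.0484 for Nlrc5 with B2m and -0.0357 with H2-K1. The cause of these changes was not tested.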
